A study of Rattus norvegicus with 12 samples.

Results

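Urethral tissue from rats with a mechanical injury of the urethra was set against tissue from sham rats without that injury. The comparison rests on 6 of the 12 libraries in the series: the 3 labelled urethral injury and the 3 labelled sham control, chosen by their treatment label alone. All rats were male. The labels give no strain, age, site or extent of the injury, or interval before harvest. The design names a vehicle without saying which group received it. The other 6 libraries came from injured rats given rapamycin or a tetrahedral DNA nanostructure (TDN), and they enter here through the filter on low counts, the scaling, the shared estimate of the spread and the mean levels by which genes are grouped.

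The urethra is a tube lined by urothelium and stratified epithelium, set in a vascular connective tissue and wrapped in smooth muscle and, at the sphincter, striated muscle. A mechanical wound breaks the lining. Repair in such tissue is known to pass from clotting and the entry of neutrophils and macrophages to epithelial migration, growth of new vessels and deposition of collagen by fibroblasts. Excess collagen in the wall is the basis of urethral stricture, the narrowing that follows many urethral injuries. Messenger RNA from whole tissue reads all of these cells together, so fewer cells of a type and less RNA per cell cannot be told apart.

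Genes are given by Ensembl ID. The count table does not pair the IDs with symbols, and none of the reference's 47357 rat genes carried an ID that matched, so no pathway or cell type marker was evaluated and the labelled tissue could not be checked against its markers. The results below therefore describe groups of genes defined by their change and level, and 4 single genes by ID.

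Between 49403631 and 55928721 counts per library were assigned to genes in the 6 libraries compared. Rapamycin replicate 2, which enters the fit, had 44765817 counts and 17475 genes with a count, the fewest of all 12 libraries. A level of at least 1 CPM (counts scaled to the library's total and composition) was reached by 14397 ± 45 genes in sham and 14191 ± 278 in injury (SD, n = 3 each; exact two-sided permutation p = 0.4, adjusted over 6 such tests p = 0.6). The 100 most counted genes of a library held 25.2% ± 1.8 of its counts in sham and 25.6% ± 0.5 in injury (SD, n = 3 each; exact two-sided permutation p = 0.8, adjusted p = 0.8). With 3 libraries against 3, this test cannot go below 0.1, so it could not have shown a difference at 0.05.

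The injury libraries were not alike, and replicate 3 stood apart from the other two. Of the 17521 genes that passed the filter on low counts, 17.4% differed at least 2-fold in level between injury replicates 1 and 2. Between replicates 1 and 3 the share was 41.6%, and between replicates 2 and 3 it was 30.2%. The 3 pairs of sham libraries gave 8.17 to 10.2%. Set against each sham library in turn, injury replicate 1 differed at least 2-fold for 47.2 to 48.5% of genes, replicate 2 for 35.8 to 37.3% and replicate 3 for 16.3 to 17.2%. Replicate 3 was thus nearer to each sham library than to either of the other injury libraries by this measure. The SD of log2 CPM was larger in injury than in sham for 83.5% of genes. The labels name no animal, batch or surgery date, so what sets replicate 3 apart was not tested, and values without it are given with the results.

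The most abundant genes of sham were less often among the most abundant of an injury library, mainly in replicates 1 and 2. Of the 100 genes with the highest mean level in sham, 62 were among the 100 most abundant genes of injury replicate 1, 68 among those of replicate 2 and 85 among those of replicate 3. Each sham library, set against the mean of the other two, kept 88 to 94. All 3 injury libraries thus kept fewer than any sham library did, replicate 3 by a small margin. The references are unlike, with 3 sham libraries for an injury library and 2 for a sham library.

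Injury against sham asks which transcripts differ in the injured urethra. A gene counts as called where its p from the edgeR quasi-likelihood test, adjusted by Benjamini-Hochberg, was under 0.05. This called 100 genes higher, 0.571% of the genes tested, and 14 genes lower, 0.0799% of them. The smallest adjusted p was 0.0187. Over all tested genes the median log2 fold change was -0.01, with quartiles of -0.61 and 0.60. TMM scaling holds this median near 0, and with total counts only it was -0.14. A log2 fold change of at least 1 was fitted for 2558 genes upward and 2686 downward, and 113 of these 5244 genes were called. The median standard error of a log2 fold change was 0.45.

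**Figure D1:**
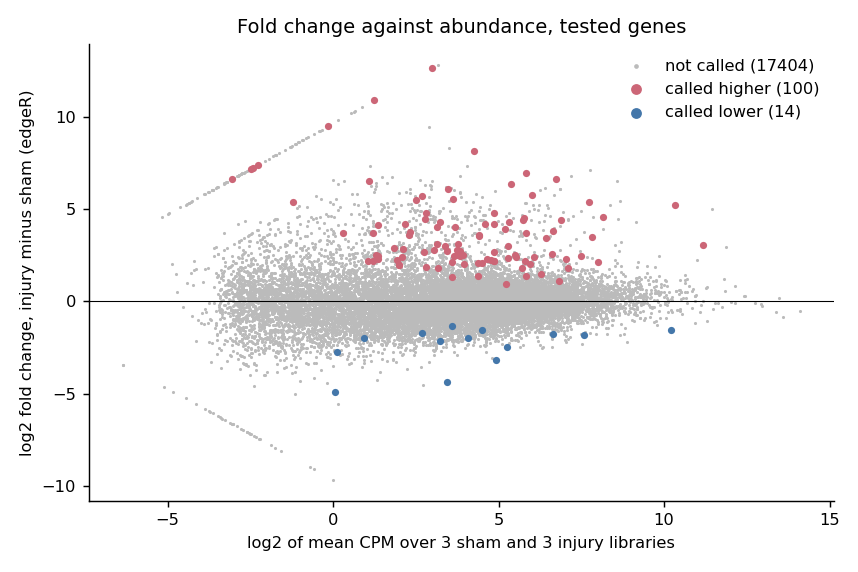
Each point is 1 gene, with the log2 of its mean CPM over the 6 libraries on the horizontal axis and its fitted log2 fold change, injury minus sham, on the vertical axis, for 17518 of the 17521 tested genes (the other 3 had no count in these 6 libraries). The 100 genes called higher (red) lie mostly above a log2 fold change of 2 and at all levels, and the straight lines at the left are genes without a count in 1 of the groups.

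The genes that rose were mostly scarce in sham tissue. Their sham levels had a median of 3.07 CPM and quartiles of 0.808 and 10.3 CPM, and their injury levels a median of 25.1 CPM and quartiles of 10.6 and 82.7 CPM. In injury 22 of the 100 had a mean of at least 100 CPM. Together they held 0.158% ± 0.036 of all counts in sham and 1.28% ± 0.65 in injury (SD, n = 3 each). By library this share was 0.129, 0.147 and 0.199% in sham and 2.02, 0.942 and 0.873% in injury replicates 1 to 3. The lowest injury value exceeded the highest sham value, and replicate 1 held more than both other injury libraries. The genes were called on these libraries, so their levels describe the calls and are no further test of them.

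Fewer genes were called lower than higher in this fit. That imbalance belongs to the calls: a log2 fold change of at least 1 was fitted for 2686 genes downward and 2558 upward. Higher calls were 87.7% of the calls here and 49.9 to 100% over the fits with any call, lowest in limma voom with sample quality weights. The genes called lower had a median level of 23.7 CPM in sham and 6.34 CPM in injury, and their log2 fold changes ran from -4.93 to -1.36. All 14 were above 1 CPM in sham. Their summed share of counts was 0.254, 0.294 and 0.263% in the sham libraries and 0.0627, 0.0702 and 0.110% in injury replicates 1 to 3. Injury replicate 3 held the largest of the injury values, at less than the lowest sham value. As for the genes that rose, these values describe the calls and are no further test of them.

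In all 114 called genes the 3 injury libraries did not overlap the 3 sham libraries, which also held for 19.4% of all tested genes upward and 22.9% downward. The test favours genes separated in this way, so the lack of overlap is no further test of the calls. For the genes that rose, the median log2 distance from the sham mean was 3.32 in injury replicate 1, 2.64 in replicate 2 and 2.73 in replicate 3. Replicate 1 lay farthest from sham for 69 of these 100 genes. For the genes that fell, the medians were -2.32, -2.15 and -1.78, and replicate 3 lay nearest to sham for 10 of 14. The injury libraries still varied among themselves over the genes that rose, with a median SD of log2 CPM of 0.599, beside 0.514 over all tested genes. Over all 17521 tested genes, replicate 3 was nearest to the sham mean for 11692 and farthest for 2476.

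ENSRNOG00000050586 was given first among the genes that rose, by the rule of largest fold change among called genes of at least 5 CPM with no overlap. It had 0 counts in each of the 3 sham libraries. In injury it reached 33.2 CPM in replicate 1, 4.78 CPM in replicate 2 and 9.77 CPM in replicate 3. Its mean of 15.9 ± 15.2 CPM (SD, n = 3) was at least 294-fold higher than sham, where the bound is set by 3 counts in each sham library, or 0.0542 CPM. The edgeR adjusted p was 0.0301, and the bound was at least 134-fold without injury replicate 1. The lowest injury library alone was at least 88.1-fold above that floor.

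ENSRNOG00000050110, the next gene by size of the rise, had 0 counts in sham replicates 1 and 2 and 21 counts, or 0.386 CPM, in replicate 3. Injury replicates 1 to 3 held 86.8, 15.4 and 11.8 CPM. Injury replicate 1 was again far above the other two, and every injury library lay above the sham range. The log2 fold change was 8.19 (SE 1.52, edgeR adjusted p = 0.0438), or 6.71 without injury replicate 1 (edgeR adjusted p = 0.125). Without sham replicate 3 no sham count remains, and no fold is given. In the fit with a replicate block its edgeR adjusted p was 0.0628.

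ENSRNOG00000023151 had the largest fall by the same rule. Its levels were 19.4, 19.8 and 23.0 CPM in sham replicates 1 to 3 and 0.568, 0.558 and 1.83 CPM in injury replicates 1 to 3. The sham libraries lay close together, and injury replicate 3 kept more of the transcript than replicates 1 and 2. The log2 fold change was -4.39 (SE 0.74, edgeR adjusted p = 0.0357), and -5.20 without injury replicate 3 (edgeR adjusted p = 0.0143). With the replicate block the edgeR adjusted p was 0.0583.

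ENSRNOG00000001915 was the more abundant of the genes given for a fall, at 53.8, 48.5 and 60.0 CPM in sham. It was at 2.82, 4.29 and 10.9 CPM in injury replicates 1 to 3, so that replicate 3 again lay nearest to sham without reaching it. The log2 fold change was -3.17 (SE 0.49, edgeR adjusted p = 0.0298), and -3.93 without injury replicate 3 (edgeR adjusted p = 0.0103). The call on each of the 4 genes was lost when sham replicate 1 or 2, injury replicate 1 or any of the 3 TDN libraries was left out, and in a fit of the 6 libraries alone (edgeR adjusted p = 0.0633 to 0.101). It was also lost without sham replicate 3 for all but ENSRNOG00000050110, without injury replicate 2 for all but ENSRNOG00000050586, and without rapamycin replicate 1 for ENSRNOG00000050110. In limma voom both genes that rose lost the call (adjusted p = 0.0645 for ENSRNOG00000050586 and 0.0790 for ENSRNOG00000050110).

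**Figure D2:**
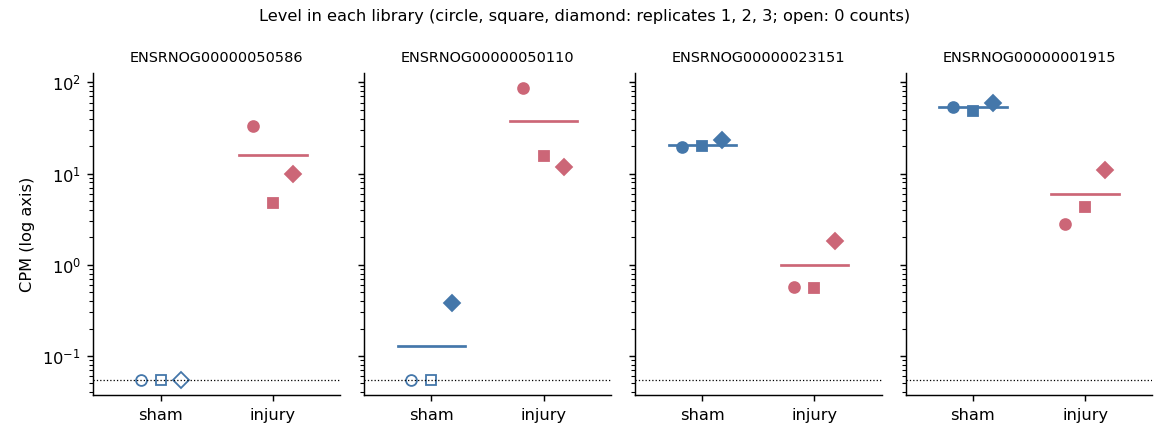
Level in CPM (log axis) of the 4 genes given by ID in each sham (blue) and injury (red) library, with the group mean as a bar; circle, square and diamond are replicates 1, 2 and 3, and open symbols on the dotted line mark 0 counts, drawn at the floor of 0.0542 CPM. For each gene every injury library lies outside the sham range, and injury replicate 1 is the highest library for both genes that rose.

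More genes were separated between the groups than were called. Every injury library was above every sham library for 3397 genes, 19.4% of those tested, and below every sham library for 4011 genes, 22.9%. Without injury replicate 3 these counts were 6109 and 6400. With 3 libraries against 3, some genes separate in this way without any difference between the groups, and their number was not estimated. The 3397 genes held 16.4% ± 0.3 of all counts in sham and 29.6% ± 4.5 in injury, and the 4011 genes 23.4% ± 0.9 in sham and 12.9% ± 4.4 in injury (SD, n = 3 each). In single injury libraries the higher set took 34.4, 28.8 and 25.5% of counts and the lower set 9.11, 11.9 and 17.8%, in the order of replicates 1 to 3. Median distances from the sham mean were 1.32, 0.99 and 0.44 on the log2 scale for the higher set, and -1.49, -1.10 and -0.43 for the lower set. Most of these changes were thus smaller than 2-fold in replicate 3. Both sets were chosen by the separation of these libraries, so their shares and distances describe the choice and are no further test of it.

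A stricter description counted genes at least 2-fold outside the range of the 3 sham libraries. In injury replicate 1 there were 2822 genes above and 3806 below that range. Replicate 2 had 1776 above and 2763 below, and replicate 3 had 944 above and 548 below. Replicates 1 and 2 thus held more genes below the range than above it, and replicate 3 the reverse. A sham library set against the other two had 216 to 429 genes above and 277 to 508 below. Since a range of 2 libraries is narrower, the like values for the injury libraries are those against each pair of sham libraries, with 3044 to 3121 above and 3960 to 4172 below in replicate 1, and 1100 to 1175 above and 659 to 888 below in replicate 3. Injury replicate 3 was therefore outside the sham range for more genes than any sham library in both directions, by a smaller margin for genes below it.

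**Figure D3:**
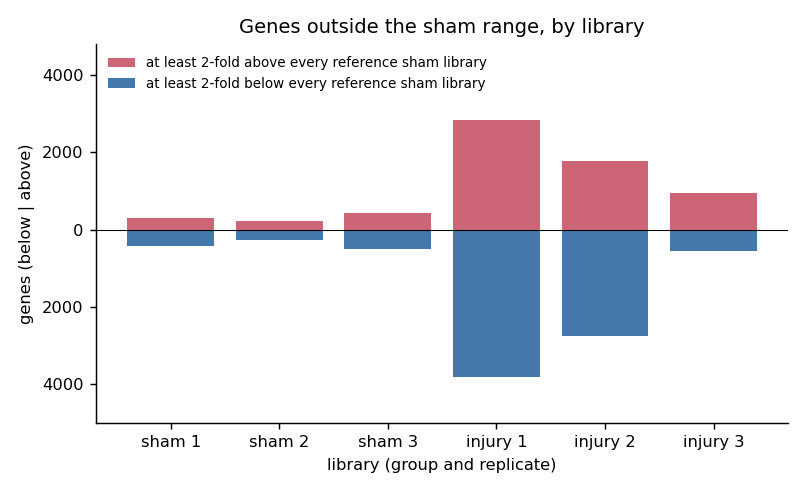
Bars give the number of tested genes at least 2-fold above (red, upward) or below (blue, downward) the reference sham libraries, which are all 3 for an injury library and the other two for a sham library. The injury libraries reach 2822, 1776 and 944 genes above and 3806, 2763 and 548 below, against at most 429 and 508 in a sham library.

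Genes outside the range in all 3 injury libraries numbered 423 above (2.41% of those tested) and 247 below (1.41%). Of the 423, 94 were among the genes called higher, and of the 247, 13 were among those called lower. The 423 genes had median levels of 1.01 CPM in sham and 11.2 CPM in injury, and 275 of them reached a mean of 5 CPM in injury. The 247 genes went from a median of 2.76 CPM to 0.565 CPM, and 90 reached 5 CPM in sham. Together the 423 genes held 0.540% ± 0.162 of counts in sham and 4.46% ± 1.56 in injury, and the 247 genes 0.675% ± 0.036 and 0.173% ± 0.078 (SD, n = 3 each). Both sets were chosen by their separation in these libraries, so their levels and shares are no further test of it. The 329 of the 423 genes that were not called varied more between injury libraries than the 94 that were called, with median SDs of log2 CPM of 0.866 and 0.664. The test weighs the spread between libraries, so this difference follows in part from the calling itself. At a threshold of 4-fold, 113 genes remained above and 39 below.

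At the 2-fold cut, injury replicate 3 shared a minority of the changes that replicates 1 and 2 had in common. Replicates 1 and 2 had 1507 genes above the sham range in common, of which 423 (28.1%) were also above it in replicate 3. They had 2387 genes below the range in common, of which 247 (10.3%) were also below it in replicate 3. Without a cut on size, replicate 3 had the same sign as replicates 1 and 2 for 1304 of the 1507 genes and 2081 of the 2387. The genes were chosen against the same sham libraries to which replicate 3 is then compared. Its median log2 distance from the sham mean over these genes was 0.63 upward and -0.44 downward, where the mean of replicates 1 and 2, which chose the genes, gave 2.13 and -2.36. These shares describe 1 library, and no test of the difference between directions was made. Only 83 genes were above the range in 1 injury library and below it in another, beside 3387 above and 4382 below in at least 1.

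**Figure D4:**
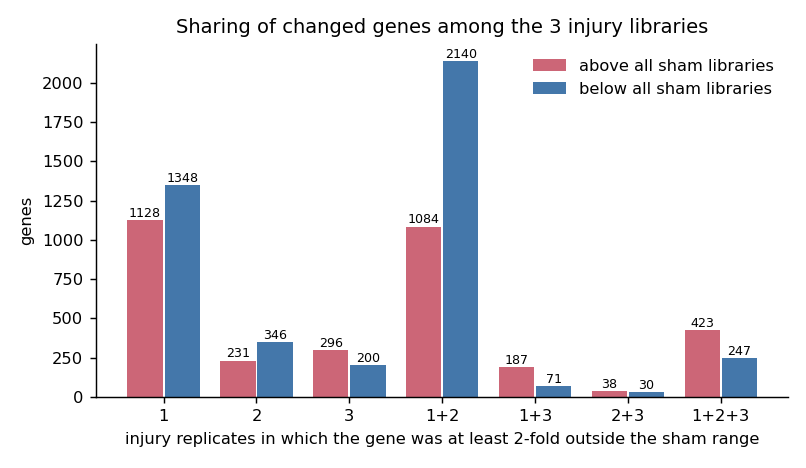
Bars give the number of genes at least 2-fold above (red) or below (blue) all 3 sham libraries, by the injury replicates in which they were so. The largest class is the 2140 genes below the range in replicates 1 and 2 but not in replicate 3, beside 1084 above it in the same 2 libraries and 423 and 247 in all 3.

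Genes were also described by their mean level over all 12 libraries. Of these libraries 9 came from injured rats, so a gene that rises moves toward the higher levels and a gene that falls toward the lower ones, and no comparison between levels was tested. Among the 1979 genes with a mean over 100 CPM in all 12 libraries, 43 were at least 2-fold above the sham range in every injury library and 6 were below it. Among the 2790 genes under 1 CPM the counts were 71 above and 106 below. The median log2 fold change was 0.20 for genes over 100 CPM, 0.02 for the 8157 genes from 10 to 100 CPM, -0.20 for the 4595 genes from 1 to 10 CPM and -0.19 for those under 1 CPM. Of the 247 genes below the range in every injury library, 106 were under 1 CPM and a further 111 from 1 to 10 CPM. Of the genes called higher, 15 were over 100 CPM, 52 from 10 to 100 CPM, 27 from 1 to 10 CPM and 6 under 1 CPM, and of those called lower 2, 6, 4 and 2. In the same order, 0.758, 0.637, 0.588 and 0.215% of the genes tested were called higher, beside 0.571% over all levels. The shares called lower were 0.101, 0.0736, 0.0871 and 0.0717%, beside 0.0799%. The median standard error of the log2 fold change was 0.32 over 100 CPM and 1.02 under 1 CPM, so that a change had to be larger among the scarce genes to be called.

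By the thresholds below, few transcripts were present in 1 group and not detected in the other. Of the 32623 gene IDs, 10835 had no count in the 6 libraries and could not show this. With at least 10 counts in each injury library, 13 IDs had 0 counts in all sham libraries, and 16 had the reverse pattern. With at least 50 counts in each library, 3 of all IDs had counts in injury and 0 in sham, and 1 had the reverse. Among the 17521 genes that passed the filter on low counts, with no further minimum, 90 had 0 counts in all sham libraries. In all injury libraries 41 of these tested genes had 0 counts, with 3 genes in both counts. IDs left out by the filter do not enter these numbers. A count of 0 in a sham library allows a level of up to 0.0526 to 0.0551 CPM, the floor of 3 counts, which covers counting error only.

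The number of genes called turned on single libraries and on the tool. Without injury replicate 3, edgeR called 1143 genes higher and 974 lower, and these included all 114. Without injury replicate 2 it called 68 genes, all higher, 49 of them among the 114. Leaving out sham replicate 1, sham replicate 2 or injury replicate 1 gave 0 calls, with 2579, 2417 and 1978 genes under 0.05 before adjustment, and 69 without sham replicate 3. A fit of the 6 libraries alone called 0, with 5096 genes under 0.05 before adjustment and 0.0558 as its smallest adjusted p, where DESeq2 on all 12 libraries called 1857. The calls also changed when libraries outside the comparison were left out, which alters the filter, the scaling and the shared spread together: 1966 genes were called without rapamycin replicate 2, 305 without rapamycin replicate 3, 2616 without the rapamycin group, and 7 to 11 without a TDN library. With the replicate block, 59 genes were called higher and 17 lower, of which 54 were among the 114. The fitted direction was the same for all of the 114 genes in each of these fits, except that 1 of them was not tested in the fit of 6 libraries. Since none of the 114 overlapped between the groups, this direction was nearly fixed by the choice of genes. In common to the reported fit, DESeq2, limma voom, edgeR without the rapamycin group and edgeR with the block were 43 genes called higher and 8 called lower.

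**Figure D5:**
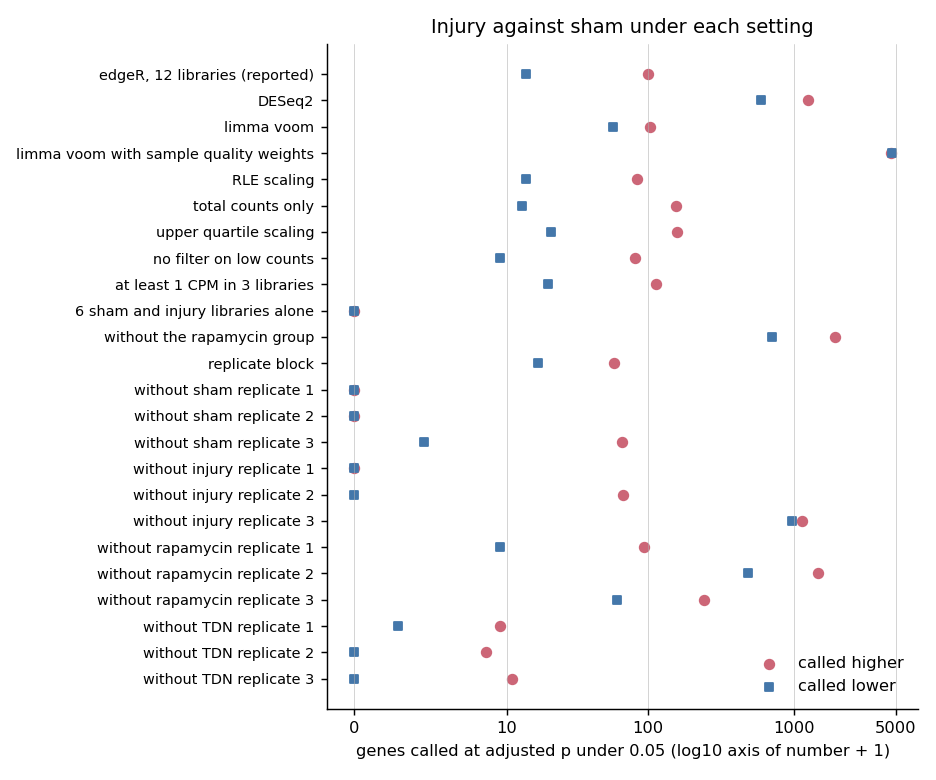
Points give the number of genes called higher (red circles) and lower (blue squares) in injury against sham at an adjusted p under 0.05, on a log10 axis of the number plus 1, for the reported fit and each alternative. The reported fit gives 100 and 14, and the range runs from 0 and 0 to 4654 and 4668, the last in limma voom with sample quality weights.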

How the data were processed

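Poly(A)-enriched RNA of urethral tissue was sequenced on an Illumina platform, per the labels' protocols. The authors deposited whole-number counts per Ensembl gene without normalization. Per the submitters' processing notes, the build was Rnor 6.0. For the aligner, counting program, annotation and strand, nothing is given in the sources used here, and reads from overlapping, antisense or near-identical genes could not be told apart. Of 15 library columns, 12 matched a labelled sample, and the other 3 were not used.

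The 17521 genes kept by edgeR's filter by group were fitted over all 12 libraries, 1 coefficient per group, with edgeR 4.0.16 in R 4.3.3 (TMM scaling, quasi-likelihood test, 8 residual degrees of freedom), and p-values were adjusted over all of them. The remaining 15102 IDs were left out. CPM used the TMM factors, and log2 CPM a prior count of 2. Standard errors are the absolute log2 fold change over the square root of F. DESeq2 1.42.0, limma 3.58.1 and other scalings, filters and sample sets were alternatives. The edgeR, DESeq2 and limma voom fits were run on simulated counts with the same spread in every group. In these data the median SD of log2 CPM was 0.51 in injury and 0.17 in sham. The simulation therefore checks the fitting steps and not the calls reported here.

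No label says that the libraries of a group are separate animals, so the p-values reflect how these libraries vary, which can be technical variation alone. Libraries of a group differed by far more than sampling noise. Deviations from the group mean correlated at 0.107, 0.138 and 0.261 between same-numbered sham and injury libraries. All exceed 0.1, so blocked values are given; the pairing comes from the data alone, and sham replicate 1 correlated more with injury replicate 2 (0.257).

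Lists and rules were chosen with earlier results of these data known. The 22 gene lists, 16 marker lists and promoter motifs fixed by symbol were not evaluated, since no ID matched a symbol. The rule for single genes took called genes with no overlap whose higher group had a mean of at least 5 CPM, by fold change. It left 84 higher and 11 lower, of which the first 2 each are given by ID.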

Additional observations from a re-analysis of the deposited data

How the results depend on the processing

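The 114 called genes kept their fitted direction in every alternative that tested them, and the number of calls did not hold. In all 114 the injury libraries did not overlap the sham libraries. Their direction was thus nearly fixed by the choice of genes and is no further test of them. DESeq2 called 1857 genes (1261 higher, 596 lower), limma voom with sample quality weights 9322 (4654 and 4668) and edgeR without the rapamycin group 2616 (1909 and 707). edgeR on the 6 libraries alone called 0 in both directions. Upper quartile scaling called 180 genes (159 higher), total counts only 156 higher, the replicate block 59 higher, limma voom 58 lower, and edgeR without a filter on low counts 9 lower. Total counts without TMM moved the median log2 fold change of all genes from -0.01 to -0.14. Of the 2 genes in each direction given by ID, the replicate block ended the calls on ENSRNOG00000050110 and ENSRNOG00000023151 and left the other two called (edgeR adjusted p = 0.0378 for ENSRNOG00000050586 and 0.0481 for ENSRNOG00000001915). Each of the 4, chosen without overlap between the groups, kept its direction in 23 alternatives, and the call was kept in 12 to 14 of them.

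Leaving out 1 library of any group gave 0 to 2117 calls (0 to 1475 higher, 0 to 974 lower). Genes at least 2-fold outside the sham range in every injury library then numbered 426 to 1529 above and 229 to 2414 below. Genes without overlap numbered 3412 to 6109 higher and 3560 to 6400 lower. The highest values of these 4 ranges are those without injury replicate 3. With no library left out, a threshold of 4-fold, which was added after seeing the data, gave 113 genes above and 39 below. Counts that require every library to pass can rise when a library is left out, by their construction. For the calls, the cause was not tested.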
